A study of Mus musculus with 8 samples.

Results

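The genes described here are 38 mouse genes that are used in germ cells or in the early embryo and are kept silent in most body cells, measured for DNA methylation in blood stem cells. They were taken as a named list among 20665 protein-coding genes on autosomes. A CpG, the C followed by G at which mammalian DNA is mainly methylated, was assigned to a gene when it lay within 2 kb of either end of the gene on the mm10 build. It was kept when it had 10 or more reads in at least 3 mice of each group, and the strands of a CpG were merged. This gave 895 CpGs of 1278034 autosomal CpGs that met the same read requirement, and 36 of the 38 genes had at least 1. Stk31, a kinase-like protein of the piRNA pathway, and Nanog, a pluripotency factor, had 0.

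The assay was enhanced reduced representation bisulfite sequencing (ERRBS), which reads DNA fragments rich in CpGs after bisulfite has converted unmethylated cytosines. The cells were uncultured hematopoietic stem cells sorted from the bone marrow of single C57BL/6 mice as negative for lineage markers, Flk2 and CD48 and positive for c-Kit, Sca-1 and CD150. The knockout group held 4 mice of genotype Atg12fl/flMx1-cre (mice 25, 28, 45 and 46), in which Cre is meant to delete the autophagy gene Atg12, and the control group held 4 mice (mice 1, 34, 36 and 37). The genotype label of each control reads WT, while the design text describes loxP-flanked Atg12 without Cre. All 8 mice, controls included, received poly(I:C) at 4 weeks of age and were sampled 2 to 3 months later. Mx1-Cre is driven by an interferon-responsive promoter and is active in many cell types, not in stem cells alone. Whether Atg12 was deleted in these cells was not analysed here.

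Germline genes often have CpG-rich promoters, and they are an exception to the rule that such promoters stay unmethylated: during early development DNA methyltransferases methylate many of them, and methylation then holds the gene silent in somatic tissues. Primordial germ cells erase these marks and switch the genes on. The products include the piRNA pathway, which protects the germline genome from transposons, the proteins that pair and recombine chromosomes in meiosis, and germ cell copies of housekeeping enzymes.

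The 250 bases before the annotated start of 6 of the genes are printed 5′ to 3′ on the strand of the gene, from RefSeq on GRCm38.p6, with every CpG in capitals. Ddx4 (chr13:112652311-112652560, minus strand), Hormad1 (chr3:95559427-95559676, plus strand), Slc25a31 (chr3:40708621-40708870, plus strand) and Dazl (chr17:50293621-50293870, minus strand) are shown as CpG-rich promoters that were methylated around the start. Tdrd5 (chr1:156303349-156303598, minus strand) is shown as one that was not, and Smc1b (chr15:85131958-85132207, minus strand) as one where the level changed across the start. The measured CpGs of Dazl lay on either side of its printed bases, not in them. From -617 to -446 bp of the Dazl start 8 CpGs averaged 97.3%, and from the start to 293 bp after it 18 averaged 96.3%.
Ddx4: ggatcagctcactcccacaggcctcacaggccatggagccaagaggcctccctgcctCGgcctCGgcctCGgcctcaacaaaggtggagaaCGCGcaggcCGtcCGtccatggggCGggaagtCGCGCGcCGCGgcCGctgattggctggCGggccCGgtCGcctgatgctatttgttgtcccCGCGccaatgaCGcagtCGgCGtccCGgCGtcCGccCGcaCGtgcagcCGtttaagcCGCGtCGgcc
Hormad1: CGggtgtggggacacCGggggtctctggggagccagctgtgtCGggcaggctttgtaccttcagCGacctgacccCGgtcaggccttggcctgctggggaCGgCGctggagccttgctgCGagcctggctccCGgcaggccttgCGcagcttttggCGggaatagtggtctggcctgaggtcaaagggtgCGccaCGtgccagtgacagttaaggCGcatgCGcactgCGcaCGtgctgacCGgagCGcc
Slc25a31: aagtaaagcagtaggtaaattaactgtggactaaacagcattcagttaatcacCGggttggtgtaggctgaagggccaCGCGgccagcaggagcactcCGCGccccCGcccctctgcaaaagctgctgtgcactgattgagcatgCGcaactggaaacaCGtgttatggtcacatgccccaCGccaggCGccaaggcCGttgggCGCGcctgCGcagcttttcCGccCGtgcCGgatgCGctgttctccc
Dazl: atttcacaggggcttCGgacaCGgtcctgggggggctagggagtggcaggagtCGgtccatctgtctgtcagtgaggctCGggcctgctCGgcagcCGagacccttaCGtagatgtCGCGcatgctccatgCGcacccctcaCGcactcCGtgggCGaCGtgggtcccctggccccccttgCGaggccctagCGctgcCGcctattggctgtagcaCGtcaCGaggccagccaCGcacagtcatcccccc
Smc1b: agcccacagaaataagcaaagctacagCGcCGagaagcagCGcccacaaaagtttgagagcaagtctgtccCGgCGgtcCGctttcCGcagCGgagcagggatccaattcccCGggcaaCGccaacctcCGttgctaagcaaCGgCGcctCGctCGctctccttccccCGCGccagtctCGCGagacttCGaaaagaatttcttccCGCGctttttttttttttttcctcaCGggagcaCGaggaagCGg
Tdrd5: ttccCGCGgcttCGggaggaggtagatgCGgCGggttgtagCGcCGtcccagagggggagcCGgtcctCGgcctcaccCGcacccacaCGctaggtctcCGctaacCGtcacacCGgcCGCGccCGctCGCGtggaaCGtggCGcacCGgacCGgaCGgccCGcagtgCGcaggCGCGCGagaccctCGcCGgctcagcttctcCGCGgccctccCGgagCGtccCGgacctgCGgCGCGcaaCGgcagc

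These 250 bases hold 31 CpGs in Ddx4, 19 in Hormad1, 18 in Slc25a31, 20 in Dazl, 25 in Smc1b and 40 in Tdrd5. Of the 38 genes, 32 had a start in the RefSeq promoter table. Dppa2, Dppa3, Dppa4, Tdrd6, Piwil2 and Spo11 are described from their gene ends only.

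The 8 libraries listed 2038266 to 3366162 cytosines each, with a median coverage of 212 to 293 reads per merged CpG. Reads carry no molecular identifiers, so read numbers overstate the number of molecules. Methylated CpGs were covered less deeply than unmethylated ones in every library, with a coverage ratio of 0.348 in control 34, 0.433 in knockout 25 and 0.542 to 0.813 in the other 6. The share of listed cytosines on the Y chromosome was 7.90 to 9.01 per 10000 in the knockouts and 1.15 to 1.83 in the controls, so genotype and the sex difference that these shares follow cannot be told apart. At the stem cell genes of the sorting gate and identity list, 4 of 8 had a measured start (Kit, Mecom, Procr and Hlf), with means of 0% to 0.197%. Of the other blood lineages, Ebf1 and Pax5 (B cell) stood at 0.35% and 4.85% and Tfrc and Epor (erythroid) at 0.16% and 22.4%, while the myeloid and T cell lists had 0 genes with a measured start. A level in these bulk samples is the share of reads that were methylated, so a change in how many cells carry the mark and a change in the mark within each cell cannot be told apart.

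The start windows of the germline genes were methylated where those of nearly all other genes were not. The start window is the 1000 bp centred on the most upstream start in the RefSeq promoter table, and its level is the mean over CpGs with 10 or more reads in all 8 mice, for windows with at least 3 such CpGs. The table start lies inside the annotated gene by 956 bp in Tdrd5, 7995 bp in Stag3 and 12402 bp in Mei1, and by under 500 bp in the other 29 genes. Of the 38 genes, 21 were measured in this way. Their median level was 86.8%, against 0.219% over all 10181 autosomal genes measured, and 12 of the 21 lay above 80%, 5 between 20 and 80% and 4 below 20%. Over all genes, 338 (3.32%) lay above 80% and 9569 (94.0%) below 20%. The list was named for being silent in somatic cells, so its high level is a description of the list and was given no test.

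The high levels were found in CpG-rich starts too. In the 300 bases around the start (250 before and 50 after), the 21 genes held 10 to 48 CpGs. Among genes with 20 or more CpGs there, 6 of 12 germline genes were above 80%, against 20 of 6009 genes in all (0.333%). Those 6 were Ddx4, Dazl, Hormad1, Mael, Slc25a31 and Sycp1. With 15 to 19 CpGs, 3 of 5 germline genes and 27 of 1732 genes in all (1.56%) were above 80%, and with 10 to 14 CpGs, 3 of 4 and 34 of 1281 (2.65%).

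**Figure D1:**
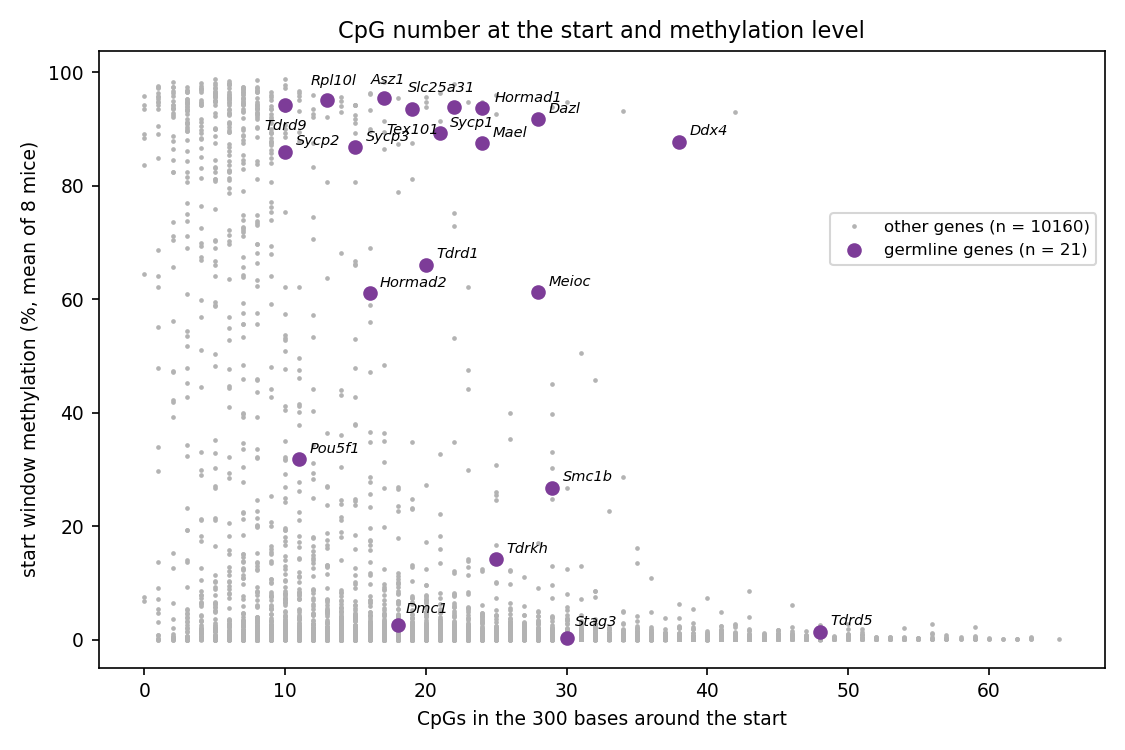
Methylation level of the start window (percent, mean of 8 mice) against the number of CpGs in the 300 bases around the start, with 1 point per gene. The 12 germline genes above 80% sit along the top at 10 to 38 CpGs, a region with few of the 10160 other genes, while Stag3, Dmc1 and Tdrd5 lie at the bottom.

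Among the piRNA pathway genes, 7 of 13 had a measured start window, with a median of 87.5%. Asz1, which anchors piRNA factors at mitochondria, was the highest of the 21 genes and stood at 95.3%, 97.7%, 95.6% and 94.9% in knockouts 25, 28, 45 and 46 and at 97.9%, 92.9%, 96.1% and 93.2% in controls 1, 34, 36 and 37. Values are given in this order of mice from here on. Tdrd9, an RNA helicase of the pathway, stood at 92.2%, 94.6%, 87.7% and 96.4% in the knockouts and 96.7%, 94.6%, 95.5% and 96.4% in the controls. The groups overlapped in both genes.

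Ddx4, the germ cell RNA helicase known as Vasa, was measured at 41 CpGs, with 86.0%, 80.5%, 89.4% and 90.04% in the knockouts and 90.1%, 87.4%, 89.2% and 89.9% in the controls. Knockouts 28 and 25 lay below all controls, and the other 2 knockouts lay among them. Mael, which is needed to silence transposons in the male germline, was at 89.1%, 87.5%, 90.2% and 87.8% in the knockouts and 85.5%, 85.6%, 86.3% and 88.1% in the controls. Its groups overlapped through control 37, which was above the 2 lowest knockouts.

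Tdrd1, a Tudor-domain scaffold that binds PIWI proteins, was at an intermediate level, with 53.1%, 64.5%, 66.7% and 74.0% in the knockouts and 73.1%, 58.0%, 70.4% and 69.1% in the controls. The lowest mouse of each group was the library with the weakest coverage of methylated DNA, knockout 25 and control 34, and the part of that coverage in the result was not tested. Tdrkh, which helps trim piRNA ends, was low at 11.7%, 11%, 16.2% and 18.5% in the knockouts and 17.9%, 5.93%, 15.4% and 17.5% in the controls. Tdrd5, a further Tudor-domain protein of male germ cells, had the most CpGs of the 21 genes around its start (48) and was unmethylated in every mouse, with 1.44%, 0.814%, 1.24% and 1.78% in the knockouts and 1.46%, 1.24%, 1.69% and 1.75% in the controls. The family of Tudor-domain genes therefore spanned the range from Tdrd5 at 1.43% to Tdrd9 at 94.3%.

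**Figure D2:**
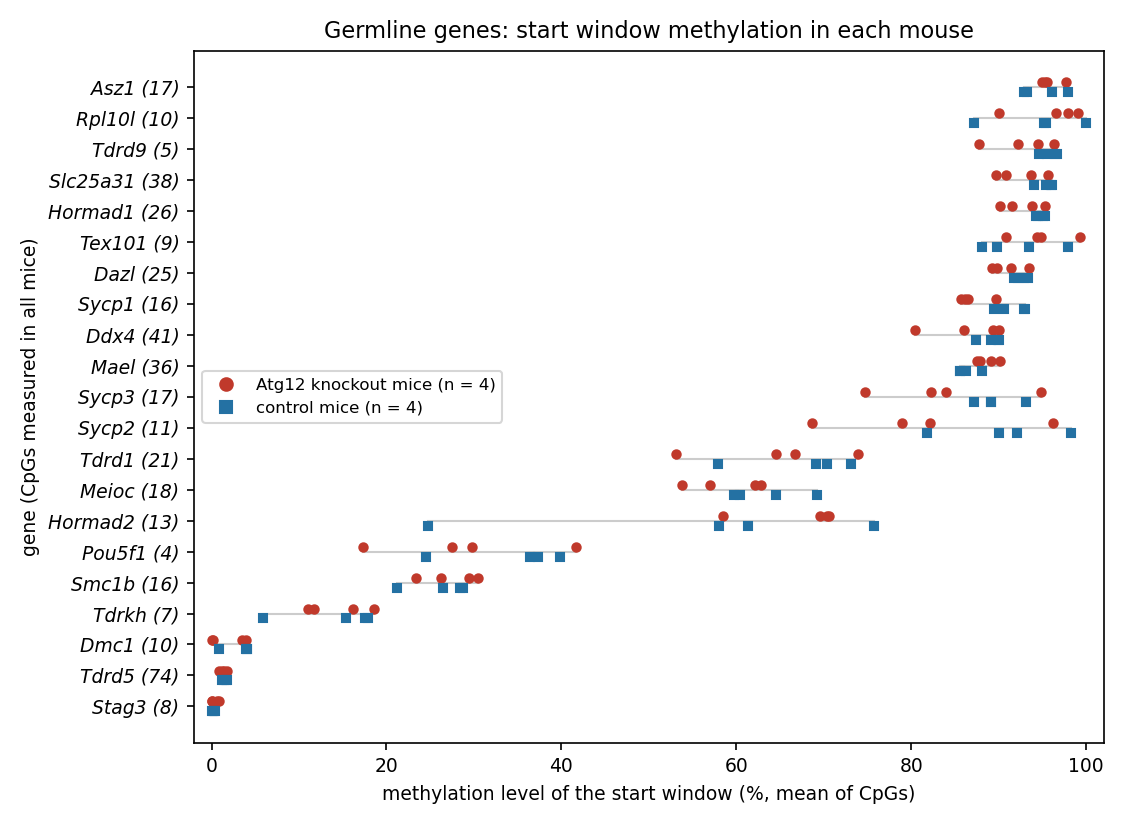
Start window methylation (percent, mean of CpGs) of the 21 measured germline genes, with 1 point per mouse and the number of CpGs in brackets. The points of the 4 knockouts and 4 controls overlap in every gene, and Hormad2 has the widest range, from 24.7% in control 34 to 75.8% in control 37.

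Among the genes of the meiotic chromosome axis, synapsis and recombination, 9 of 13 were measured, and they were the most mixed group: 4 above 80%, 3 between and 2 below 20%. Hormad1, an axis protein that promotes pairing, was at 95.3%, 93.8%, 90.2% and 91.5% in the knockouts and at 94.3%, 95.3%, 94.5% and 95.04% in the controls. Sycp1, the transverse filament of the synaptonemal complex, was at 85.7%, 86.5%, 89.8% and 86.1% in the knockouts and 89.5%, 93.0%, 90.7% and 92.9% in the controls. In Sycp1 the groups overlapped through knockout 45 and control 1, and in Hormad1 3 knockouts lay below all 4 controls.

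The axis proteins Sycp2 and Sycp3 varied more between mice. Sycp2 stood at 68.7%, 79.0%, 96.2% and 82.2% in the knockouts and 90.03%, 81.8%, 92.1% and 98.2% in the controls, on 146 to 837 reads per mouse, the fewest of the 21 genes. Sycp3 stood at 84.0%, 74.7%, 82.3% and 94.8% in the knockouts and 89.1%, 89.1%, 87.1% and 93.1% in the controls. In Sycp3, 3 knockouts lay below the 4 controls and knockout 46 above them.

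Meioc, which keeps germ cells in the meiotic program, was at 53.8%, 62.2%, 62.8% and 56.9% in the knockouts and 60.4%, 59.8%, 64.5% and 69.3% in the controls. Hormad2, a paralog of Hormad1, was at 70.4%, 58.4%, 70.7% and 69.5% in the knockouts and 61.3%, 24.7%, 58.1% and 75.8% in the controls. Control 34 was far below the other 7 mice in Hormad2, which had from 560 reads in control 34 to 3718 in knockout 45.

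Smc1b, the meiotic form of a cohesin core subunit, was at 26.3%, 23.4%, 30.5% and 29.5% in the knockouts and 26.5%, 28.7%, 28.4% and 21.2% in the controls. Dmc1, the meiotic strand-exchange recombinase, was at 3.47%, 0.189%, 0% and 3.95% in the knockouts and 4.05%, 0.835%, 3.94% and 4.04% in the controls. Stag3, the meiotic cohesin subunit, was the lowest of the 21 genes at its table start, with 0.796%, 0.603%, 0.0373% and 0.0183% in the knockouts and 0.131%, 0.0148%, 0.264% and 0.342% in the controls. The start windows of Dmc1 and Stag3 were below 5% in all 8 mice.

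Of the 7 regulators of germ cells and pluripotency, 2 were measured at the start. Dazl, an RNA-binding protein needed for germ cell development, was at 93.5%, 91.4%, 89.9% and 89.2% in the knockouts and 93.0%, 91.8%, 93.4% and 92.3% in the controls. Pou5f1, the pluripotency factor Oct4, was at 29.8%, 27.5%, 41.7% and 17.4% in the knockouts and 37.3%, 24.5%, 39.8% and 36.4% in the controls, from 4 CpGs. The Dazl values lay within 4.26 percentage points of each other, whereas those of Pou5f1 spanned 24.3.

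The genes of sperm and testis proteins were highly methylated in all 3 measured cases of 5. Slc25a31, the ADP/ATP carrier of sperm, was at 93.7%, 95.7%, 90.9% and 89.7% in the knockouts and 96.0%, 95.4%, 94.0% and 96.1% in the controls, from 38 CpGs. Rpl10l, a ribosomal protein used in spermatocytes, was at 99.1%, 96.6%, 97.98% and 90.1% in the knockouts and 87.2%, 100%, 95.2% and 95.4% in the controls. Tex101, a sperm surface protein, averaged 94.9% ± 3.49 (SD, n = 4) in the knockouts and 92.3% ± 4.36 (SD, n = 4) in the controls. In Slc25a31 3 knockouts lay below all controls, and in the other two the groups overlapped across their range.

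Neighbours in the order of levels often could not be separated. The 12 genes above 80% ran from Sycp2 at 86.0% to Asz1 at 95.4%, and the SD over the 8 mice was 2.98 percentage points in the median of these genes and 3.99 over all 338 genes above 80%. Hormad2 at 61.1% and Meioc at 61.2% differed by less than the SD of either gene, and the values of Tdrd1 at 66.1% overlapped with both. Smc1b at 26.8% and Pou5f1 at 31.8% overlapped over mice too. For the 5 genes between 20 and 80% the median SD was 7.34, against 7.18 over all 274 such genes.

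Around the start, the median germline gene was methylated where the median gene was not. In the 250 bp after the start, the mean over 19 germline genes was 73.3% ± 1.85 (SD, n = 4 mice) in the knockouts and 75.2% ± 1.88 (SD, n = 4) in the controls. Over 9174 genes in all the same bin had 4.64% ± 0.121 (SD, n = 4) in the knockouts and 4.61% ± 0.194 (SD, n = 4) in the controls. The median germline gene was at 82.1% to 93.5% in each bin from 500 bp before to 750 bp after the start, over 8 to 19 genes that differed between bins. The lower quartile was 10.003% from 500 to 250 bp before the start and 26.0% in the 250 bp before it, so some of the genes were low there.

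**Figure D3:**
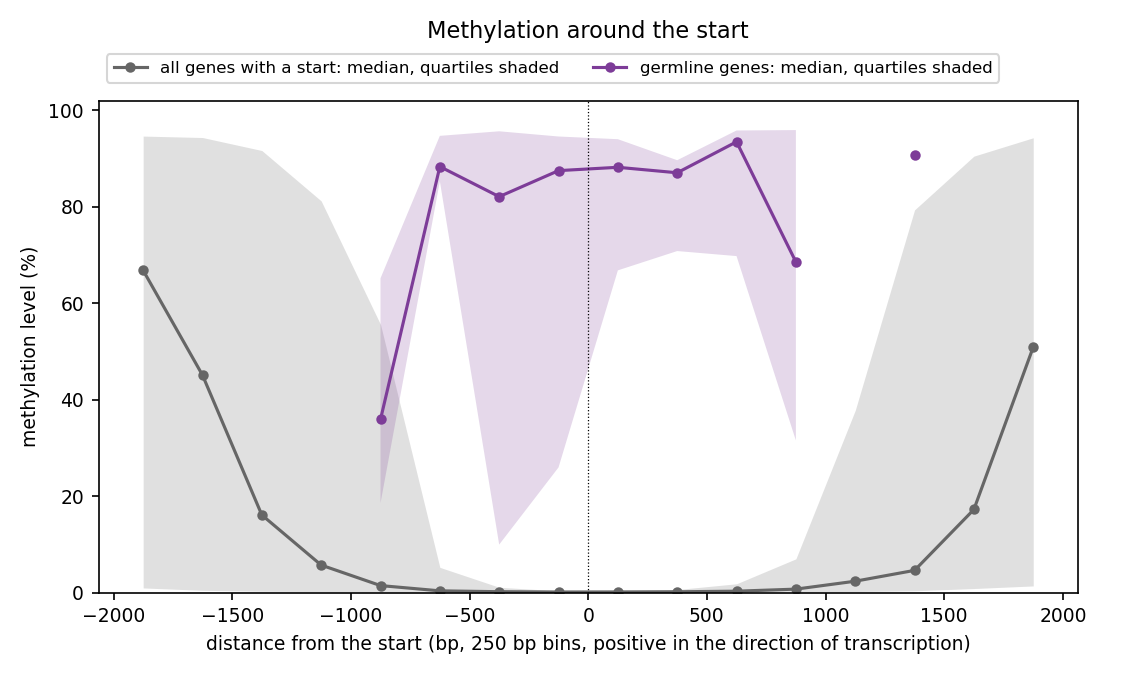
Median methylation level (percent) in 250 bp bins of distance from the start, with the quartiles shaded, for bins with at least 3 genes. The germline genes lie near 88.2% just after the start, where the median of all genes is 0.186%, and the median of all genes rises towards 2000 bp on either side.

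The level changed sharply inside several of these genes, and stretches of CpGs were chosen after their values were seen, so they are described without a test. Positions are in bp from the start, positive in the direction of transcription. In Dazl the 18 CpGs from the start to 293 averaged 96.3%, the 5 CpGs from 357 to 472 averaged 85.8%, the 8 CpGs from 491 to 549 averaged 19.6%, and the 33 CpGs from 598 to 878 averaged 0.954%. The stretch up to 293 held 94.9% to 98.4% per mouse and the last stretch 0.184% to 1.88%. In all 8 mice the edge of the methylated promoter thus lay between 293 and 598. At the edge itself, from 491 to 549, the mice ranged from 7.40% in knockout 45 to 39.2% in knockout 28.

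In Smc1b the change ran the other way. The 11 CpGs from -274 to -95, in the printed sequence and just before it, averaged 6.40%, and the 5 CpGs from 83 to 332 averaged 71.7% with a range of 54.0% to 86.9% over mice. The start of Ribc2, on the opposite strand, lies 141 bp from that of Smc1b, so both genes share these CpGs. Tdrkh showed the same order, with 0.548% at 4 CpGs from -176 to -131 and 32.5% at 3 CpGs from 321 to 379. The latter 3 CpGs ranged from 8.83% in control 34 to 43.3% in knockout 46.

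Tdrd5 held 0.368% over 64 CpGs from -412 to 146, then 9.07% over 9 CpGs from 164 to 285, and in its 2 CpGs at -856 and -774 it held 35.97%. Meioc held 85.3% over 3 CpGs from -893 to -723, 61.2% over 18 CpGs from -39 to 346 and 41.6% over 15 CpGs from 726 to 864, and single CpGs around the start ran from 28.3% to 92.1%. Over mice, the 2 far CpGs of Tdrd5 ranged from 13.2% in control 34 to 60.4% in control 37. The 3 far CpGs of Meioc ranged from 66.7% in knockout 25 and control 34 to 100% in knockouts 28, 45 and 46. In Stag3, 10 CpGs at the upstream end of the annotated gene, at -8009 to -7646 from the table start, averaged 38.7%, against 0.276% in the window at the table start. Gal3st4 and Gpc2 each have an end within 2 kb of an end of the annotated Stag3 gene. The start of Gpc2, on the opposite strand, lies 572 bp from that of Stag3, so the start windows of both genes overlap. The Gpc2 window stood at 1.62%.

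**Figure D4:**
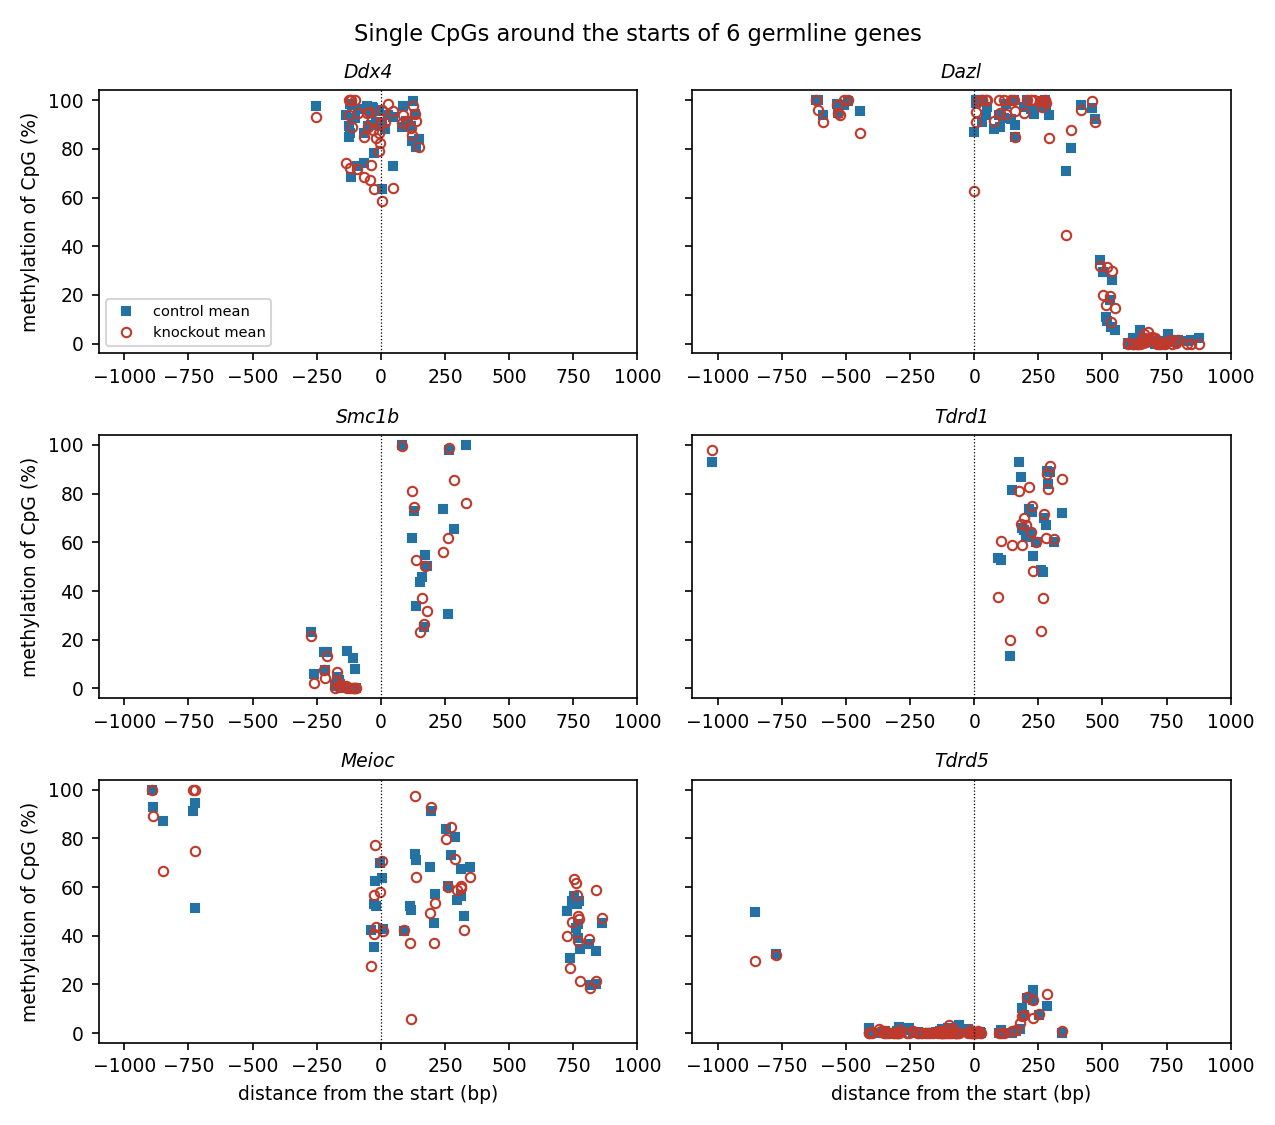
Methylation level (percent) of single CpGs against distance from the start (bp) in 6 germline genes, as the mean of the 4 knockouts (circles) and the 4 controls (squares). Dazl passes from near 100% to near 0% between 357 and 598 bp, Smc1b rises across its start, Meioc is high far before its start and intermediate from there on, Tdrd1 is intermediate after its start, and Tdrd5 lies near 0%.

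The other 11 genes with enough CpGs had no measured start window and were measured at their gene ends. The gene end level is the same mean over all CpGs within 2 kb of either end. High levels were found at Dppa2, a pluripotency-associated DNA-binding protein (97.98%), Pdha2, the testis pyruvate dehydrogenase subunit (97.5%), Rec8, the meiotic kleisin (96.9%), Piwil4, the PIWI protein Miwi2 (95.7%), Brdt, the testis bromodomain protein (93.5%), Syce1, a central element of the synaptonemal complex (92.6%), and Zfp42, the pluripotency marker Rex1 (89.4%). Most of these are not promoter levels: all 7 CpGs of Rec8, all 7 of Syce1, 12 of 15 in Piwil4 and 18 of 24 in Zfp42 lay at the far end of the gene. All 13 CpGs of Pdha2 lay more than 500 bp from its start, and Dppa2 has no placed start. Spo11, which cuts DNA to start meiotic recombination, was at 65.6% and Dppa3, the maternal factor Stella, at 45.3%. In Spo11, 1 CpG at the lower end stood at 22.6% and 3 CpGs at the upper end at 79.9%. Tdrd6 (10.6%) and Mei1, which is needed for meiotic breaks (8.85%), were low.

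Within Mei1, Tdrd6 and Dppa3 the level differed between stretches. At Mei1 the lower gene end stood at 22.3%, while 49 CpGs at the upper end, around the start of the neighbour Ccdc134, stood at 0.206%. In Tdrd6, 11 CpGs held 2.06% and a pair of CpGs nearer the upper end of the gene held 37.8%. In Dppa3, 4 CpGs near the lower end held 9.83% and 10 CpGs near the upper end 59.5%. Dppa4, Piwil1, Piwil2 and Mov10l1 had too few CpGs for a level: 4, 1, 2 and 5 CpGs by the rule, each at 83.3% to 100% on average over mice.

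Short sequence motifs were counted in the 300 bases around the start, on both strands, as letters and not as binding sites. CACGTG, an E-box, a motif of the kind that MAX and MGA bind, was in 13 of the 32 germline promoters (40.6%) and in 1383 of 17274 promoters in all (8.01%), and reads the same on both strands. In promoters with 10 or more CpGs it was in 13 of 29 germline genes and 11.3% of all. TCCCGC, a motif of the kind that E2F6 binds, searched with its reverse GCGGGA, was in 13 of 32 (40.6%) and in 26.1% of all, and in 41.5% of all those with 10 or more CpGs. TGACGTCA, the cAMP response element, was in 0 of 32 and in 2.36% of all. None of the 3 motifs contains another.

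The CpG in the middle of the E-box was measured at 4 places. In Ddx4 the E-box at -29, printed above as caCGtg near the end of the sequence, had 70.9%. Hormad1 has E-boxes at -57 and -20, with 74.4% and 82.1%, and the E-box of Sycp1 at -94 had 87.1%. These single CpGs were variable, with a range over mice from 35.0% to 83.8% in Ddx4.

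The measured autosomal somatic relatives of these genes had unmethylated starts. Of 19 somatic counterparts, 9 autosomal ones were measured, at 0.0537% to 0.376% with a median of 0.149%. Smc3 and Stag1, cohesin subunits of every cell, stood at 0.119% and 0.159%. The meiotic subunits Stag3 and Smc1b stood at 0.276% and 26.8%. The Smc1b value is a mean over 11 CpGs at 6.40% before the start and 5 at 71.7% after it. Slc25a4 stood at 0.149% beside 93.9% in Slc25a31. On the X chromosome, which was not tested, Slc25a5, Pdha1 and Smc1a stood at 0.0223% to 0.393% in the knockout means and 19.4% to 26.9% in the control means, which follows the Y chromosome shares, and Ddx3x at 0.117%. Of 42 further germline genes, 17 were measured with a median of 93.0%: 11 were above 80%, among them Sohlh1, Sohlh2 and Tex14, and 5 below 20%, namely Hspa2, Pld6, Prdm9, Terb1 and Syce2. The factors known to silence germline genes had little methylation at their starts, with 9 of 10 measured and all below 20%, from Mga at 0.0417% to E2f6 at 1.22%.

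No germline gene passed the adjusted threshold for a difference between Atg12 knockouts and controls. Each window was fitted with a moderated quasi-binomial model in which the spread between mice sets the error. In this model a mouse counts by its reads, whereas the printed group means and differences give each mouse of a group equal weight. The p-values were adjusted by the Benjamini-Hochberg method over all windows with a mean level of 1 to 99%. Of 2058 start windows tested, 0 (0%) passed an adjusted p of 0.05, and so did 0 of 20 germline genes, whose smallest adjusted p was 0.831. At an unadjusted p under 0.05 there were 112 windows (5.44%) and 2 germline genes. Of the windows, 3.06% were lower and 2.38% higher at that level, 63 and 49 in number, and this split was 78 and 31 without control 34 and 50 and 85 without knockout 25. In all, 63 windows (3.06%) but 0 germline genes had groups that did not overlap. With limma on log2 ratios 0 windows passed, and 91 had an unadjusted p under 0.05.

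Both germline genes at the unadjusted level were lower in the knockouts. Without control 37, 0 germline genes were at that level, and with limma on log2 ratios 1 was. Slc25a31 averaged 92.5% ± 2.71 (SD, n = 4) in the knockouts and 95.4% ± 0.961 (SD, n = 4) in the controls, a difference of -2.90 percentage points. Sycp1 averaged 87.0% ± 1.86 (SD, n = 4) and 91.5% ± 1.76 (SD, n = 4), a difference of -4.52. The quasi-binomial model gave both an adjusted p of 0.831. Meioc (-4.56), Sycp3 (-5.68) and Hormad1 (-2.04) followed by p. Mael, at 2.30, was higher in the knockouts. Several of these sizes rested on single mice: Meioc was -2.86 without knockout 25 and -2.64 without control 37, Sycp3 was -2.60 without knockout 28 and -9.31 without knockout 46, and Hormad1 was -1.21 without knockout 45. With summed reads Slc25a31 was -1.18. With each mouse left out in turn Slc25a31 ranged from -3.96 to -1.96, and Sycp1 from -5.43 to -4.01.

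The largest differences in size came from genes with wide spread. Hormad2 was 67.3% ± 5.90 (SD, n = 4) in the knockouts and 55.0% ± 21.6 (SD, n = 4) in the controls, a difference of 12.3 percentage points. Without control 34 the difference was 2.22. Sycp2 was 81.5% ± 11.4 (SD, n = 4) and 90.5% ± 6.78 (SD, n = 4), a difference of -9.03 that was -4.75 without knockout 25 and -13.9 without knockout 45. By direction, 13 of the 20 germline genes were lower in the knockouts, against 47.5% of all start windows, and 8 of the 12 above 80% were lower, against 48.5% of all start windows at that level. The median difference was -1.83 percentage points over the 20 genes and 0.0688 over all windows. These counts have no test, and knockouts differ from controls in Y chromosome share as well as in genotype.

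**Figure D5:**
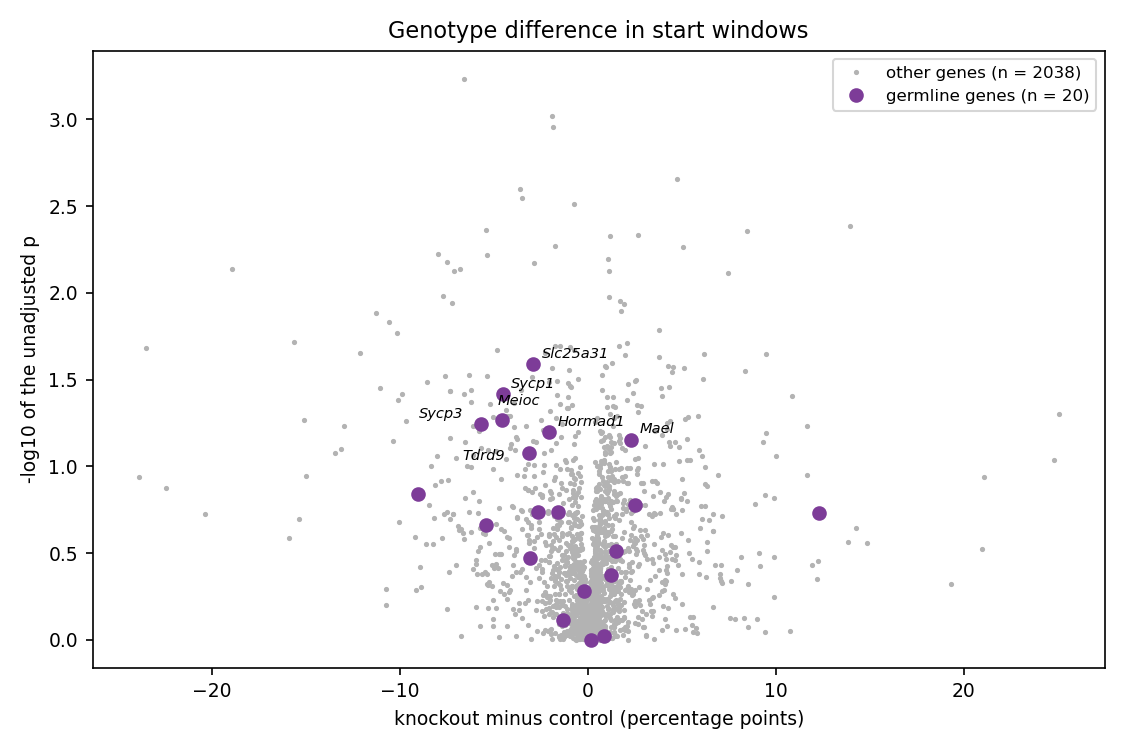
Difference between group means in start windows (knockout minus control, percentage points) against -log10 of the unadjusted p, with 1 point per tested gene. The 20 germline genes lie inside the cloud of the 2038 other genes, with Slc25a31 and Sycp1 the highest of them on the p axis.

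Gene end windows gave the same count, but they repeat many CpGs of the start windows and are not a separate set of observations. In Mael the same 36 CpGs make up both windows. Of the gene end CpGs, 38 of 39 in Slc25a31, 26 of 28 in Hormad1 and 16 of 23 in Sycp1 were in the start window too. Of 9449 windows 0 (0%) passed, as did 0 of 32 germline genes (smallest adjusted p 0.815 by the quasi-binomial model). With an unadjusted p under 0.05 there were 522 (5.52%, of which 3.06% lower and 2.47% higher) and 4 germline genes: Mael, higher by 2.30 percentage points in the knockouts, and Sycp1, Slc25a31 and Hormad1, lower at -3.60, -2.92 and -1.995. Without control 37, 1 germline gene was at that level, and with limma on log2 ratios 3 were. The split of all windows at that level moved with single mice and with the weights: 289 were lower and 233 higher with all mice, 476 and 170 without control 34, 277 and 374 without knockout 25, and 338 and 96 with summed reads. Rec8 came next, with 97.0%, 96.7%, 94.0% and 96.0% in the knockouts and 98.2%, 96.8%, 97.5% and 99.3% in the controls. Groups that did not overlap were found in 276 windows (2.92%) and 0 germline genes, and 21 of 32 germline genes were lower in the knockouts against 50% of all.

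At single CpGs the count was also 0 of 583436 (0%) and 0 of 662 in the germline genes, with a smallest adjusted p of 0.562 in this set from the quasi-binomial model. The unadjusted p was under 0.05 at 73 germline CpGs (11.03% of 662), against 8.89% of all CpGs: 48 were lower and 25 higher, against 4.46% and 4.42% of all, and the groups did not overlap at 19 (2.87%), against 2.47% of all. With limma on log2 ratios the unadjusted p was under 0.05 at 37 of the 662 germline CpGs and at 30913 of the 583436 in all. These counts have no test. Of the 662 CpGs, 376 were lower in the knockouts, against 49.6% of all CpGs.

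The germline CpG with the smallest p lies in the Ddx4 promoter at -41 (chr13:112652351), upstream of the E-box printed above. It was at 68.7%, 58.4%, 60.8% and 81.3% in the knockouts and 94.0%, 100%, 87.7% and 100% in the controls, on 209 to 489 reads per mouse. All 4 knockouts were below all 4 controls, with means of 67.3% and 95.4% and an adjusted p of 0.562 by the quasi-binomial model. In Meioc, the CpG at 116 (chr11:102665701) was at 23.2%, 0%, 0% and 0% in the knockouts and 37.9%, 65.0%, 52.3% and 47.9% in the controls, on 30 to 125 reads. The groups did not overlap there, although the window around it did not separate them.

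The CpG of Tdrd1 at 259 (chr19:56826468) stood at 25.5%, 10.4%, 36.1% and 22.04% in the knockouts and 62.2%, 29.1%, 48.5% and 54.5% in the controls, with overlapping groups. At Sycp1, the CpG at -56 (chr3:102936156) stood at 88.6%, 89.8%, 85.3% and 88.6% in the knockouts and 100%, 100%, 95.7% and 96.5% in the controls, with no overlap. The Mael CpG at 148 (chr1:166238596) stood at 74.1%, 100%, 77.1% and 100% in the knockouts and 100%, 100%, 97.99% and 98.6% in the controls, so its mean was lower in the knockouts while that of its window was higher. None of these passed the adjusted threshold of the quasi-binomial model, and with 4 mice per group a p above the threshold does not show that the groups were equal.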

How the data were processed

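DNA methylation was measured in 8 libraries, 1 per mouse, 4 knockouts and 4 controls. The deposited tables give, per the file headers, the coverage of each cytosine as a read count and the percent of those reads showing C (methylated) or T. Reads were processed with CASAVA 1.8.2 and Bismark on mm10, per the submitters' processing notes. For trimming and duplicates the settings are not given in the labels or headers used. Each listed cytosine had at least 10 reads. Methylated reads were recovered as the count times the deposited percent, rounded, and the strands of a CpG were summed.

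Window levels weight CpGs equally. Genotype was tested with a quasi-binomial model whose overdispersion, held at 1 or more, was moderated with limma 3.58.1 (R 4.3.3), adjusted by Benjamini-Hochberg over all autosomal windows or CpGs at 1 to 99%. The scripts were tested on simulated data. All 132614 listed CpGs inside the RefSeq promoter sequences fell on CG. Levels in every mouse are given for the start windows at 20 to 80%, those with the 5 largest spreads and the 3 highest and 3 lowest levels, for the 5 smallest p-values of each kind of feature (start windows, gene end windows, CpGs; genes measured in both windows are shown by the start window), and for Ddx4, Dazl and Tdrkh, which were added after their values were seen. The genes, the lists and the rule were chosen with earlier results of these data known. Alternatives changed the test, the CpG weights, the coverage minimum, the tested range, the window and the mice.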

Additional observations from a re-analysis of the deposited data

Results flagged for a closer look

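In 64 sets of 4 mice (1 group in 1 start or gene end window), the lowest or highest mouse stood far from the other 3 in 2, and chance gives about 1 in 20. The start window of Dmc1 had 0.835% in control 34, against 3.94% to 4.05% in the other controls. The start window of Hormad2 had 58.4% in knockout 28, against 69.5% to 70.7% in the other knockouts.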

How the results depend on the processing

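The start windows gave 0 calls in all 16 alternatives, and no germline gene or CpG was called under any alternative run. Gene end windows gave 1 call with limma on log2 ratios and 0 to 1 when each mouse was left out in turn, with 1 without knockout 45. Single CpGs gave 23 calls with a tested level of 5 to 95% and 0 to 30 when each mouse was left out, with 30 without knockout 45. The cause was not tested. The median level of the germline start windows stayed at 85.9% to 87.6% over 14 alternatives. The knockout minus control difference turned sign for Pou5f1 with 1000 bp on either side (1.71 percentage points), for Smc1b with summed reads (-1.59), with CpGs in at least 3 mice of each group (-2.46) and without control 37 (-0.44), and for Tdrd1 without knockout 25 (0.76). With each mouse left out in turn it ranged from -0.44 to 2.55 in Smc1b and from -6.30 to 0.76 in Tdrd1. With 1000 bp on either side the difference in Meioc was -0.76. The difference in Hormad2 moved from 12.3 to 2.22 without control 34. No paired analysis was possible because the groups share no mouse numbers. Windows with few CpGs or reads, such as Pou5f1 and Sycp2, limit what could be seen.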

Other observations

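Start windows that were both CpG-rich (10 or more CpGs in the 300 bases) and above 80% methylated numbered 81 in these stem cells. Of these, 12 were among the 38 germline genes and 10 on the list of further germline genes. CACGTG was in 20 of the 81 (24.7%) and in 13 of the 69 that were not among the 38 genes (18.8%). It was in 11.1% of the CpG-rich start windows below 20%. By single CpGs, 457 of the 895 in the germline genes (51.1%) were above 80%, 175 (19.6%) between 20 and 80% and 263 (29.4%) below 20%, against 32.9%, 7.35% and 59.8% of all autosomal CpGs.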
